A study of Mus musculus with 8 samples.

Results

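Ligands of the tumour necrosis factor (TNF) superfamily were examined in splenic regulatory T (Treg) cells that differed in the level of a Bach2 reporter. The 10 genes were fixed by name as the family members a T cell may express: Tnf, Lta, Ltb, Tnfsf8, Tnfsf10, Tnfsf11, Tnfsf12, Tnfsf13b, Tnfsf14 and Cd40lg. Of these, 9 were matched by Ensembl ID to a row of the 36811 gene models, and all 9 were among the 11260 models that passed the low-value filter. Tnfsf12 was not matched and is not analysed here. Tnfsf13b passed through the HI and the LO libraries alike, since it exceeded 1 FPKM (fragments scaled by transcript length and library size) in 2 libraries of each group.

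All mice were C57BL/6 with the genotype Foxp3EGFP-DTR Bach2tdRFP/+ and were 12 to 13 weeks old, so every library came from cells with 1 reporter allele of Bach2. CD4 T cells were enriched from spleen and sorted as Foxp3-GFP positive, with high (HI) or low (LO) red fluorescence from the Bach2 locus. Each group had 4 libraries, from females F1 and F2 and males M1 and M2. Whether libraries came from separate or pooled animals is not given in the sources used here, so each p-value reflects library-to-library spread, which may be technical.

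The ligands of this family are trimeric proteins that span the cell membrane, and several can be cut from the surface by proteases. They bind receptors of the TNF receptor superfamily, which signal through TRAF adaptors to NF-kB or, where the receptor carries a death domain, to caspases. Lymphotoxin alpha (Lta) is secreted as a homotrimer or joins lymphotoxin beta (Ltb) in a membrane heterotrimer that binds the lymphotoxin beta receptor and shapes lymphoid tissue. Bach2 is a transcriptional repressor whose recognition element contains the letters TGANTCA, shared with AP-1 factors.

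Bach2 itself stood at 13.6, 20.7, 19.4 and 8.62 FPKM in HI F1, F2, M1 and M2, and at 0.894, 0.447, 0.753 and 0.670 in the LO libraries in the same order. Foxp3 was read in every library, at 13.3 to 15.2 FPKM in HI and 10.5 to 19.8 in LO, as were Cd4 and Cd3e. Of the 8 Treg and CD4 T cell markers 3 were called: Il2ra was lower in LO (mean 75.6 against 27.7 FPKM), and Ctla4 (101 against 251) and Ikzf2 (10.2 against 22.1) were higher (limma adjusted p = 0.00149, 0.000642 and 0.0214). Markers of other cells differed between the groups. The counts of called markers stand beside 3.64% of all tested genes called lower and 4.65% called higher in LO. Of 8 tested B cell markers, 4 were lower in LO, and the summed list ranged from 157 to 268 FPKM in HI and from 78.8 to 105 in LO. Ms4a1, which encodes a B cell surface protein, was at 5.50 to 24.3 FPKM in HI, at 0 in LO F1 and LO F2, and at 0.643 and 1.95 in LO M1 and LO M2. Of 7 tested plasmacytoid dendritic cell markers 4 were lower in LO (summed 261 to 392 against 145 to 255 FPKM), with Siglech at 0 in LO F1 and LO M1. Of 9 tested myeloid markers 2 were lower (376 to 561 against 351 to 584), and of 3 tested NK and CD8 T cell markers 1 was lower (46.2 to 54.2 against 26.0 to 34.2). Of 5 tested plasma cell markers 2 were higher in LO, Prdm1, which effector Treg cells also express, and Jchain (list sum 123 to 150.2 against 178 to 269). Read totals are not in the table. Steps between low values gave depths, relative to HI F1, of 0.64 (HI M1, the shallowest) to 1.27 in the first 7 libraries and 5.27 in LO M2.

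Sequence from before the annotated start is shown for the ligands that changed, for Tnf and Ltb, which lie beside Lta on the chromosome, and for Tnfsf14, which holds a TGANTCA match. RefSeq promoter windows of GRCm38.p6, running from 250 bases before to 50 after the start, were found for 8 of the 10 genes, without Tnfsf12 and Cd40lg. The stretches lie at chr17:35205548-35205577 (Lta, minus strand), chr4:63861368-63861397 (Tnfsf8, minus), chr14:78308044-78308293 (Tnfsf11, minus), chr17:57194320-57194349 (Tnfsf14, minus), chr17:35202008-35202257 (Tnf, minus) and chr17:35194257-35194438 (Ltb, plus). Each is written 5′ to 3′ on the strand of its gene, and Lta, Tnfsf8 and Tnfsf14 are given as 30 bases around a match. Lta, Tnfsf8 and Ltb were shortened because other annotated transcripts begin further upstream. The windows of Lta and Tnfsf14 hold 3 and 4 GGAAA matches in all, of which 1 each is shown. Capitals mark TGANTCA, the NF-kB consensus and the core of NFAT sites, GGAAA, on either strand.
Lta: gatcgacagagagGGAAAtgtgcagagaag
Tnfsf8: ggctgagcctaaaGGAAAcagaagtggttg
Tnfsf11: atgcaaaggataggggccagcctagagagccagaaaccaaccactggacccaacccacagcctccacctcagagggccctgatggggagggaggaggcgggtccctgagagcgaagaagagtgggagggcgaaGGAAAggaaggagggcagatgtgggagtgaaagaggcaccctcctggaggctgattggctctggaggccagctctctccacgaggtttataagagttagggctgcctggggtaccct
Tnfsf14: atcccaccTGAGTCAcattttctGGAAAgt
Tnf: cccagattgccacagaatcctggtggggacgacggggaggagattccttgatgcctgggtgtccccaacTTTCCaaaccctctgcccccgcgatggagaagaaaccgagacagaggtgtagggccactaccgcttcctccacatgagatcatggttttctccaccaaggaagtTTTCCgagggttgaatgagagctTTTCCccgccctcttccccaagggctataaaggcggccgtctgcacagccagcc
Ltb: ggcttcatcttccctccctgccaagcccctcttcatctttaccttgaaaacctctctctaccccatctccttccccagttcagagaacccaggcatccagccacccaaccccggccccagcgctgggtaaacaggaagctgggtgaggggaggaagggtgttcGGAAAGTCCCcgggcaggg
The NF-kB consensus was found in Ltb alone, 87 bases before its start, where it overlaps GGAAA, and 4.51% of all 32851 promoter windows hold it. TGANTCA was found in Tnfsf14, 160 bases before the start, and in Tnfsf13b, against 7.81% of all windows. GGAAA was found in all 8 genes and in 61.3% of all windows. These matches are a description of letters and not of binding.

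Among the 9 ligands measured, Lta and Tnfsf8 fell and Tnfsf11 rose in LO cells, while Ltb, Tnf, Tnfsf14, Tnfsf10, Cd40lg and Tnfsf13b did not pass the test. The 3 called ligands stand beside 8.29% of all tested genes called at an adjusted p below 0.05 (limma), 4.65% higher and 3.64% lower in LO. HI and LO libraries stood fully apart for 4 of the 9 ligands (Lta, Tnfsf8, Tnfsf11 and Ltb), against 15.1% of all tested genes. The median log2 difference, LO minus HI, was 0.15 over the ligands and -0.03 over all tested genes. In bulk samples, fewer cells with a transcript and less of it per cell cannot be told apart.

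**Figure D1:**
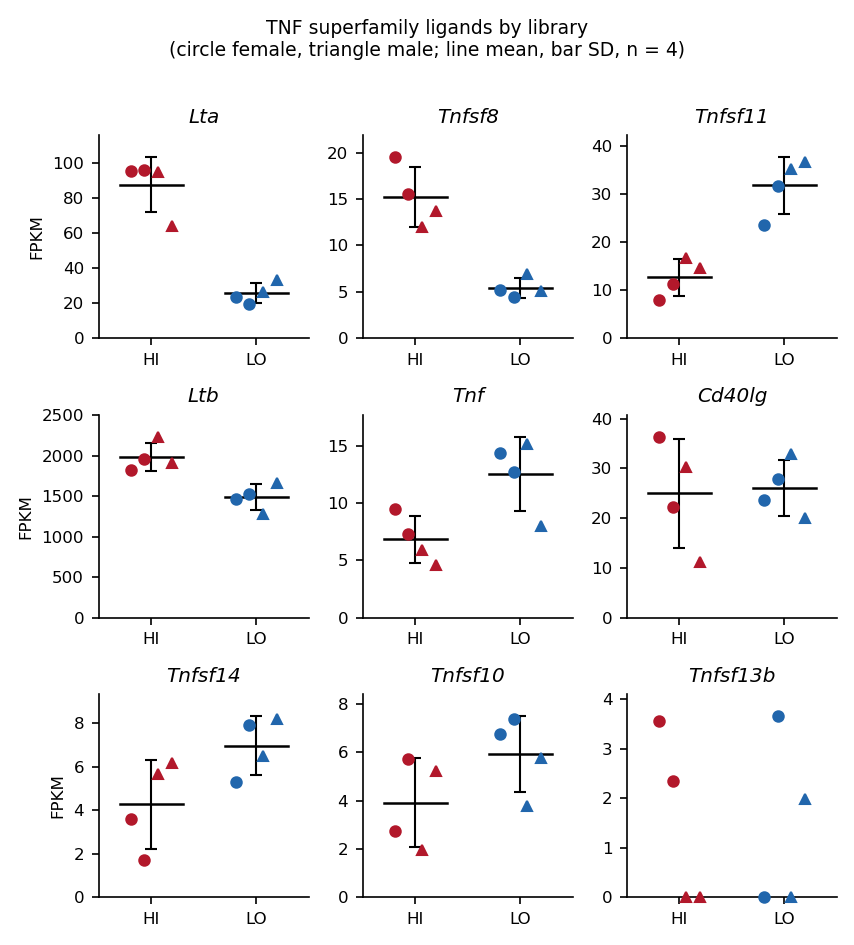
FPKM of the 9 measured ligands in each library, HI in red and LO in blue, circles female and triangles male, with the mean and SD of 4 libraries (left out for Tnfsf13b, which is at 0 in 4 libraries); each panel has its own axis from 0. The HI and LO points do not overlap for Lta, Tnfsf8, Tnfsf11 and Ltb.

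Lta, which encodes lymphotoxin alpha, stood at 95.97, 96.05, 95.3 and 64.2 FPKM in HI F1, F2, M1 and M2. In LO the same labels gave 23.5, 19.8, 26.3 and 33.5 FPKM. Every LO library lay below every HI library, and HI M2 was the lowest of its group while LO M2 was the highest of the other. The mean fell from 87.9 ± 15.8 to 25.8 ± 5.83 FPKM (SD, n = 4 each), a 3.41-fold lower level, with a log2 difference of -1.74, SE 0.22 (limma, adjusted p = 0.00123). The exact permutation test gave a two-sided p of 0.0286, the smallest that 4 against 4 libraries allow. B cells also make Lta, and their markers were lower in LO too: Cd79a was at 37.2 to 73.1 FPKM in HI, lowest in HI M2, and at 3.24 to 5.81 in LO. Their part in the Lta difference was not tested.

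Ltb, the membrane partner of Lta, was by far the most abundant ligand. Its FPKM was 1828, 1960, 2236 and 1915 in HI F1, F2, M1 and M2, and 1466, 1524, 1284 and 1670 in LO. The groups did not overlap, yet the means, 1985 ± 176 and 1486 ± 160 FPKM (SD, n = 4 each), differed by only 1.34-fold. The log2 difference was -0.42, SE 0.13, and missed the threshold (limma, adjusted p = 0.079; exact permutation p = 0.0286). Without LO M2 it passed (log2 difference -0.48, limma adjusted p = 0.047), and under quantile normalization the sign turned (log2 difference 0.10, limma adjusted p = 0.734). By rank Ltb hardly moved, with 90 tested genes above its mean in HI and 89 in LO. It made up 91.1% to 94.1% of the summed FPKM of the ligands in HI and 91.0% to 93.5% in LO.

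Tnf encodes the founding cytokine of the family and lies between Ltb and Lta on chromosome 17. It was at 9.48, 7.27, 5.95 and 4.63 FPKM in HI and at 14.4, 12.7, 15.1 and 7.98 in LO. Only LO M2 lay within the HI range, below HI F1. Its means were 6.83 ± 2.07 and 12.6 ± 3.22 FPKM (SD, n = 4 each), and the log2 difference of 0.79, SE 0.31, did not pass (limma, adjusted p = 0.171; exact permutation p = 0.0571). No alternative gave a call, with adjusted p from 0.108 to 0.313 (limma). Tnf was also higher in the library numbered 1 than in that numbered 2 within each sex and group, alone of the 9 ligands and like 9.18% of all tested genes.

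The neighbours on chromosome 17 therefore stood in different proportions in the groups. For each 100 FPKM of Ltb there were 3.35 to 5.25 FPKM of Lta in HI and 1.30 to 2.05 in LO. Lta exceeded Tnf 10.1 to 16.0 times in HI and 1.55 to 4.20 times in LO, the highest LO value being that of LO M2. These ratios are taken inside a library, so a scaling factor common to its genes does not change them. They were chosen after the values were seen and are given without a test.

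**Figure D2:**
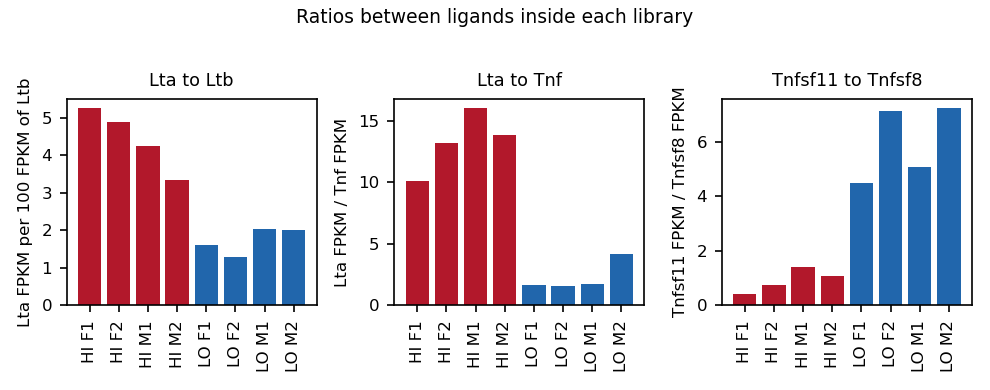
Ratios of FPKM between ligands inside each library, with 1 bar per library, HI in red and LO in blue. Lta per 100 FPKM of Ltb and Lta over Tnf are lower in every LO library, and Tnfsf11 over Tnfsf8 is higher in every LO library.

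Tnfsf8, or CD30 ligand, is a membrane ligand of activated T cells. It was at 19.5, 15.6, 12.0 and 13.7 FPKM in HI F1, F2, M1 and M2, and at 5.26, 4.45, 6.95 and 5.08 in LO. The lowest HI library was above the highest LO library. The mean fell from 15.2 ± 3.24 to 5.43 ± 1.07 FPKM (SD, n = 4 each), a 2.80-fold lower level, with a log2 difference of -1.33, SE 0.26 (limma, adjusted p = 0.0127; exact permutation p = 0.0286). The call was kept in 15 of 16 alternatives, and its loss with the library label as a block is given further below. Of 8 tested B cell markers 4 were lower in LO too, and the part of B cells in the Tnfsf8 difference was not tested.

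Tnfsf11, which encodes RANKL, the ligand that drives osteoclast formation and acts in lymph node and thymic development, was the ligand that rose. It was at 7.99, 11.4, 16.7 and 14.6 FPKM in HI and at 23.6, 31.7, 35.2 and 36.8 in LO. The lowest LO library, LO F1, exceeded the highest HI library, HI M1. The mean rose from 12.7 ± 3.82 to 31.8 ± 5.90 FPKM (SD, n = 4 each), 2.51-fold, with a log2 difference of 1.29, SE 0.27 (limma, adjusted p = 0.0164; exact permutation p = 0.0286). Both male libraries lay above both female libraries in HI and again in LO, which held for Tnfsf11 alone of the 9 ligands and for 2.1% of all tested genes (4.61% with the sexes apart in either direction). This order was noticed in the values and was not tested, and libraries of the same label may share an animal.

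Tnfsf11 stood below Tnfsf8 in HI F1 and F2 (0.409 and 0.730 times its FPKM) and above it in HI M1 and M2 (1.40 and 1.06 times). In every LO library it was above Tnfsf8, by 4.48 to 7.24 times. Of the ligand FPKM other than Ltb, Tnfsf11 held 4.46% to 12.2% in HI and 23.0% to 30.8% in LO. Lta held 53.5% to 59.1% of it in HI and 17.1% to 28.1% in LO.

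Cd40lg, the CD40 ligand with which helper T cells activate B cells, was at 36.4, 22.3, 30.4 and 11.1 FPKM in HI and at 23.6, 27.8, 33.0 and 20.1 in LO. The HI libraries enclosed the LO libraries, and no difference was detected beyond this spread (log2 difference 0.15, SE 0.35, limma adjusted p = 0.856). Without HI M2, the lowest library, the small difference changed sign (log2 difference -0.18).

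The remaining ligands were low. Tnfsf14, or LIGHT, which binds HVEM and the lymphotoxin beta receptor, was at 3.60, 1.70, 5.65 and 6.16 FPKM in HI and at 5.28, 7.92, 6.48 and 8.19 in LO (log2 difference 0.68, SE 0.37, limma adjusted p = 0.339). Tnfsf10, or TRAIL, a ligand that can trigger apoptosis, was at 2.77, 5.73, 1.98 and 5.23 FPKM in HI and at 6.76, 7.38, 3.77 and 5.77 in LO (log2 difference 0.54, SE 0.37, limma adjusted p = 0.456). Both had overlapping groups and higher LO means without passing the test. Tnfsf13b, or BAFF, a survival factor of B cells made mainly by myeloid and stromal cells, was at 3.55 and 2.35 FPKM in HI F1 and F2, at 3.66 and 1.99 in LO F2 and M2, and at 0 in the other libraries. Its log2 difference was -0.03, SE 0.70 (limma, adjusted p = 0.988), and its sign turned when single libraries were left out.

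**Figure D3:**
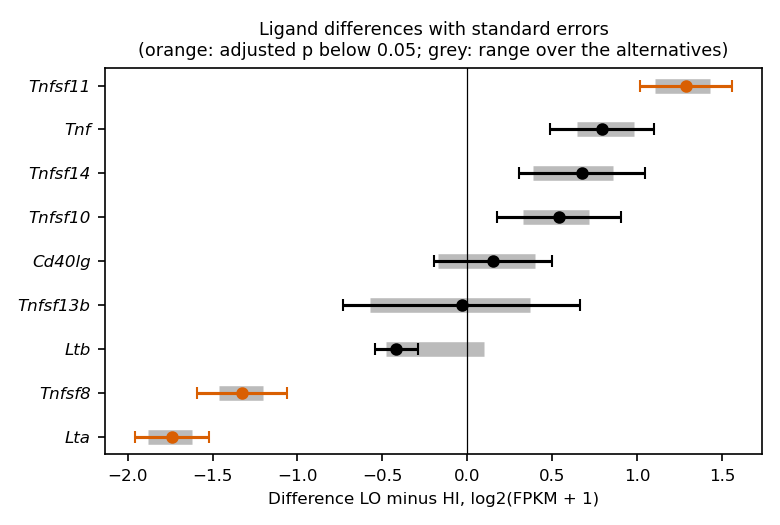
Difference LO minus HI in log2(FPKM + 1) for the 9 ligands, with points and standard errors from limma and the range over the alternatives in grey. Lta, Tnfsf8 and Tnfsf11, in orange, have an adjusted p below 0.05, and the grey ranges of Ltb, Tnfsf13b and Cd40lg cross 0.

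FPKM is scaled by transcript length, so levels can be ordered between genes. In HI the order by mean was Ltb, Lta, Cd40lg, Tnfsf8, Tnfsf11, Tnf, Tnfsf14, Tnfsf10 and Tnfsf13b. Ltb and Lta each stood clear of the next gene, while the ranges of all later neighbours overlapped. In LO the order was Ltb, Tnfsf11, Cd40lg, Lta, Tnf, Tnfsf14, Tnfsf10, Tnfsf8 and Tnfsf13b. There Ltb stood clear of Tnfsf11, Lta of Tnf and Tnfsf8 of Tnfsf13b, and the other neighbours overlapped. Among all tested genes the mean of Lta was above 85.0% of genes in HI and 60.9% in LO, that of Tnfsf8 above 48.2% and 25.1%, and that of Tnfsf11 above 43.8% and 66.0%.

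The genes with profiles most like the called ligands were found by Euclidean distance between mean-centred log2(FPKM + 1) values over the 8 libraries, among 10022 genes. These genes were chosen for likeness to ligands already called, so their own differences between HI and LO follow from that choice. For Lta they were Eno3, a muscle-type enolase (distance 0.379), Gsto1, a glutathione transferase (0.448), and Myc (0.523), against a median distance of 2.81 to all genes. Myc was at 110 ± 19.9 FPKM in HI and 29.5 ± 4.09 in LO (SD, n = 4 each). For Tnfsf8 they were Gpr34 (0.487), the ribosomal protein gene Rpl21 (0.545) and H2-Ob, a modulator of class II antigen loading (0.566), with a median of 2.34. B cells express H2-Ob, and the part of the lower B cell markers in its values was not tested. The Gpr34 call was lost in 12 of 16 alternatives and that of Kcna3 in 6. For Tnfsf11 they were Incenp, a chromosomal passenger protein (0.459), the potassium channel gene Kcna3 (0.557), and Icam1, an adhesion molecule (0.631), with a median of 2.41. Icam1 was at 34.8 ± 6.51 FPKM in HI and 100.005 ± 9.50 in LO (SD, n = 4 each).

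Of 13 listed genes of receptors that bind these ligands, 8 were tested, 2 rose in LO cells and 0 fell, where 4.65% of all tested genes rose and 3.64% fell. Tnfrsf1b, the receptor of TNF and lymphotoxin alpha known as TNFR2, was at 76.9, 89.0, 82.4 and 96.3 FPKM in HI and at 187, 266, 166 and 365 in LO. All LO libraries were higher, with LO M2 the highest, and the mean rose from 86.1 ± 8.41 to 246 ± 90.3 FPKM (SD, n = 4 each), 2.86-fold (log2 difference 1.44, SE 0.24, limma adjusted p = 0.00497). Tnfrsf8, which encodes CD30, the receptor of the ligand made from Tnfsf8, was at 3.92, 5.54, 5.55 and 5.27 FPKM in HI and at 12.7, 13.6, 9.28 and 18.2 in LO. Its mean rose 2.65-fold, opposite to its ligand (log2 difference 1.23, SE 0.28, limma adjusted p = 0.0248). The Tnfrsf8 call was kept in 8 of 16 alternatives, and its loss with the library label as a block is given further below. It was lost without both HI M1 and LO M2 (limma adjusted p = 0.102) and without HI F1, HI F2, HI M2, LO F1, LO F2 or LO M2 (limma adjusted p = 0.0617, 0.055, 0.0526, 0.0573, 0.071 and 0.0714), with log2 differences of 1.08 to 1.27.

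**Figure D4:**
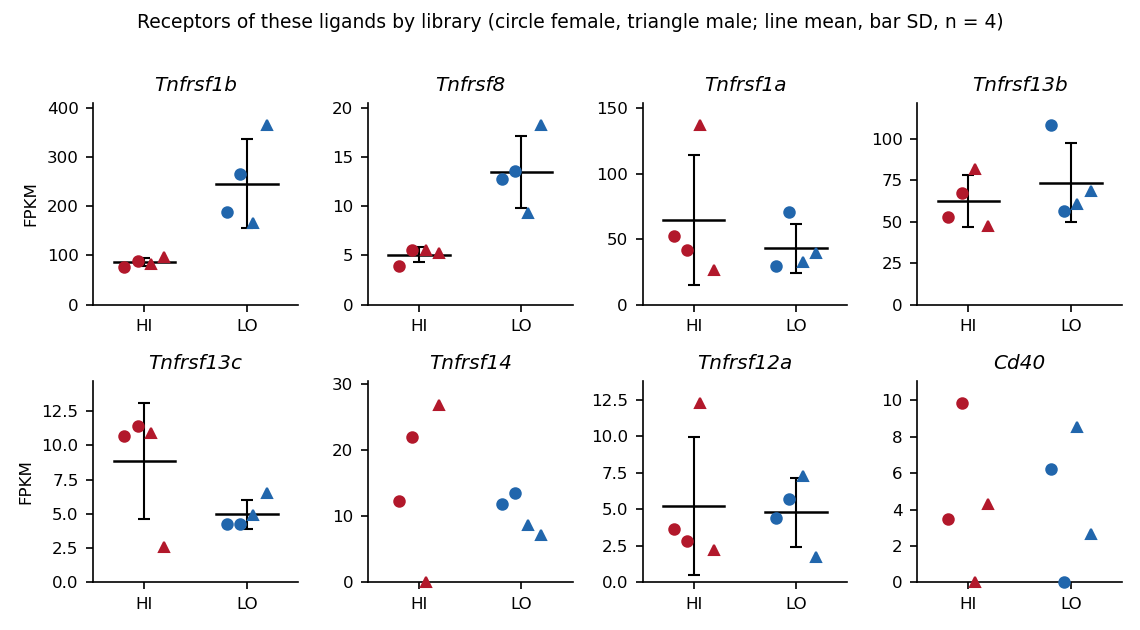
FPKM of the 8 tested receptors of these ligands in each library, HI in red and LO in blue, circles female and triangles male, with the mean and SD of 4 libraries (left out for Tnfrsf14 and Cd40, which have libraries at 0); each panel has its own axis from 0. Tnfrsf1b and Tnfrsf8 are higher in every LO library, and the other 6 receptors overlap.

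The other receptors did not pass the test. Tnfrsf1a, the TNF receptor with a death domain, was at 26.7 to 137 FPKM in HI and 29.4 to 70.6 in LO, and its difference of -0.39 (SE 0.46) changed sign without HI M1, the highest library (log2 difference 0.06). Tnfrsf13b and Tnfrsf13c bind the ligand made from Tnfsf13b. Tnfrsf13b was at 47.4 to 81.9 FPKM in HI and 56.2 to 108 in LO. Tnfrsf13c, the gene of a BAFF receptor on B cells, was at 2.57 to 11.4 and 4.25 to 6.49. Tnfrsf14 (HVEM) was at 0 in HI M1, at 12.3 to 26.9 in the other HI libraries and at 7.22 to 13.6 in LO. Its difference changed sign without HI M1 (log2 difference 0.20 in all and -0.89 without it). Tnfrsf12a was at 2.22 to 12.3 FPKM in HI and 1.72 to 7.26 in LO, and Cd40 at 0 to 9.87 and 0 to 8.52. Ltbr, the lymphotoxin beta receptor, and Tnfrsf10b, a TRAIL receptor, did not exceed 1.25 and 0.631 FPKM in any library. Tnfrsf17 was at 0 except for 1.11 FPKM in LO M2, and Tnfrsf11a (RANK) and Tnfrsf11b (osteoprotegerin), the receptors of RANKL, were listed at 0 in all 8 libraries.

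Among 15 further TNF receptor genes, 9 were tested, 3 rose and 0 fell in LO cells, beside the same 4.65% and 3.64% of all tested genes. These were Tnfrsf4 (OX40; log2 difference 0.80), Tnfrsf18 (GITR; 0.67) and Tnfrsf9 (4-1BB; 0.76), with limma adjusted p of 0.0196, 0.0275 and 0.0445. Of 16 alternatives, 14 kept the Tnfrsf4 call, which was lost without HI F1 or LO F2 (limma adjusted p = 0.0605 and 0.0586). The Tnfrsf18 call was kept in 10, and lost without a filter (0.056) and without any 1 HI library or LO F2 (0.051 to 0.0822). The Tnfrsf9 call was kept in only 4, and its loss with the library label as a block is given further below. It was lost without any 1 HI library, LO F2 or LO M2 (0.0514 to 0.11), and also under a smaller pseudocount, no filter, quantile normalization and sex as covariate (0.0517 to 0.0737) and without both HI M1 and LO M2 (0.0966). Relt was at 10.5 to 31.1 FPKM in HI and 8.94 to 12.8 in LO (limma adjusted p = 0.159, and 0.0434 without HI M2). Of 8 other ligand genes, 3 were tested and limma called 0, with 1 at an unadjusted p below 0.05. The share of all tested genes at such an unadjusted p was not counted, so this count has no background. Tnfsf9, the ligand of 4-1BB, was at 0 to 2.83 FPKM in HI and 1.42 to 11.6 in LO (limma adjusted p = 0.166). Fasl was at 2.52 to 10.8 and 0 to 7.86 FPKM, and Tnfsf4 (OX40 ligand) at 0 to 2.56 and 0 to 1.71.

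Of 24 adaptors, kinases and regulators of signalling downstream of these receptors, limma called 0, beside 8.29% of all tested genes. An unadjusted p below 0.05 was found for 3, again without a share over all tested genes. Traf4 was at 10.2 to 29.6 FPKM in HI and 5.99 to 8.97 in LO (limma adjusted p = 0.0967), and Casp8, the initiator caspase of death receptors, at 131 to 182 and 86.7 to 129 (0.209). Tnfaip3, the NF-kB inhibitor A20, was at 11.0 to 29.4 FPKM in HI and at 22.9 to 29.8 in LO except for 145 in LO F1 (0.224). Rnf31, a subunit of the linear ubiquitin ligase, was at 15.0 to 39.8 and 27.4 to 44.4 (0.246).

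Genes of ligand shedding and messenger control gave no call either. Of 13 genes 12 were tested, limma called 0, and 2 had an unadjusted p below 0.05, again without a share over all tested genes. Adam10, a sheddase, was at 21.1 to 44.3 FPKM in HI and 40.0 to 53.4 in LO (limma adjusted p = 0.212). Tnfaip8, a TNF-induced gene that was also placed in this list, was at 96.4 to 166 and 167 to 233 FPKM (limma adjusted p = 0.125). Zfp36l1, which promotes decay of AU-rich messengers, was at 43.9 to 67.8 and 55.5 to 81.7 FPKM, and Rc3h2, a paralogue of Roquin, at 1.09 to 9.12 and 1.44 to 13.9. Over these pathway lists 5 of 56 tested genes were called, a share near the 8.29% of all tested genes. That count was 3 without HI M1, without HI M2 or without LO M2, 2 without HI F2, and 1 without HI F1 or without LO F2.

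**Figure D5:**
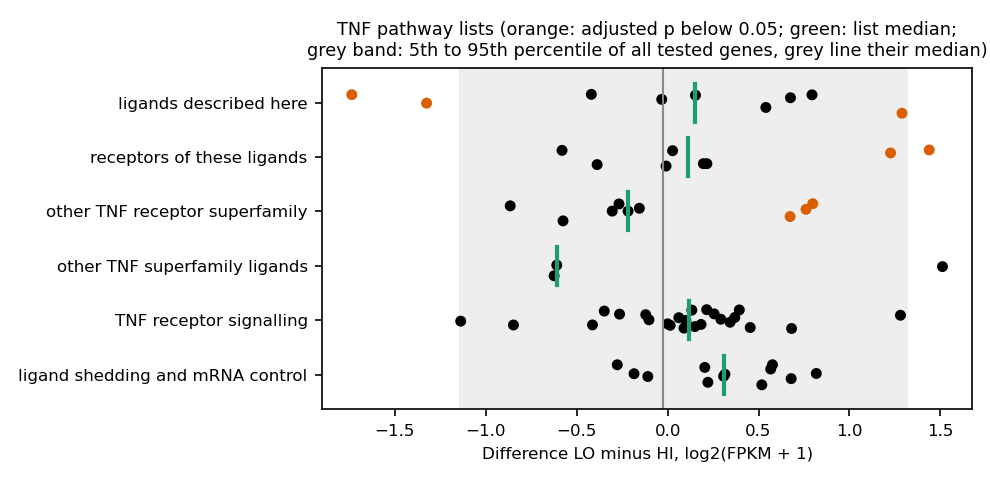
Difference LO minus HI in log2(FPKM + 1), with 1 point per tested gene, for the ligands and 5 lists of related genes; the green bar is the list median and the grey band runs from the 5th to the 95th percentile of all tested genes, -1.14 to 1.32. The called genes, in orange, are 3 ligands, 2 of their receptors and 3 further receptors, and the other lists have none.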

How the data were processed

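RNA sequencing libraries were made with SmartSeq2 from sorted spleen Treg cells, per the labels' protocols, and placed in groups by title. The deposited values are FPKM, which the authors took from Cuffnorm, per the name of the table, 1 column per library. Per the submitters' processing notes, the tools were FastQC, HISAT2 and cutadapt, and NCBIM37 and mm9 are the builds listed. For the scaling, annotation and use of strand, the answer is not given in the sources used here, so overlapping genes cannot be told apart. The series' design text describes another, single-cell experiment. Symbols came from a gene name table, by Ensembl ID, for 31840 of 36811 models.

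Genes with at least 1 FPKM in at least 4 libraries entered limma 3.58.1 (R 4.3.3) on the log2(FPKM + 1) scale (eBayes, variance trend, Benjamini-Hochberg, threshold 0.05), LO against HI over 8 libraries without covariates. This scale understates changes of low genes, and folds are ratios of mean FPKM. The fit was tested on simulated data of independent normal values. These lack the zeros and unequal depth of the libraries, so they do not test the calls made here. Where a library is at 0, no fold is given. Beside it, a two-sided exact permutation test was made for each ligand. The members, lists and tests were chosen with earlier results of these data known. Named genes are all ligands and their receptors, up to 4 genes of each other list by smallest p, and the 3 nearest profiles of each called ligand. Zfp36, Rhbdf2, Zc3h12a and Litaf were named after their values were seen. Results were recomputed with a pseudocount of 0.1, without a filter, with a filter at 5 FPKM, with quantile and upper quartile scaling, sex as covariate or the label as a block, leaving out each library in turn, and leaving out both HI M1 and LO M2, the last chosen after seeing the data. Sequences are from RefSeq on GRCm38.p6, another build than that of the values, and were matched by symbol. No set test was made. An item of the marker lists is not reported here.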

Additional observations from a re-analysis of the deposited data

Results flagged for a closer look

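In each group of 4 libraries, the gap between the highest or lowest value and its nearest neighbour was set against the whole range of the group, and gaps above the critical value of Dixon's test are listed. Of 92 groups from 46 named genes, 10 passed. The chance rate of about 1 in 20 groups assumes normal values and cannot be set against this count. Groups at 0 in all libraries are counted but cannot pass, and a group with a single value above 0, as Tnfrsf17 in LO, always passes. A single ligand was among them: Lta in HI M2, at 64.2 FPKM against 95.3 to 96.05 in the other HI libraries. Among receptors, Tnfrsf8 was at 3.92 FPKM in HI F1, Tnfrsf12a at 12.3 in HI M1, Tnfrsf13c at 2.57 in HI M2 and Tnfrsf17 at 1.11 in LO M2, the deepest library, with the other LO libraries at 0. Among the other genes, Tnfsf4 was at 1.71 FPKM in LO M1, Traf4 at 8.97 in LO M1, Tnfaip3 at 145 in LO F1, Rc3h2 at 9.12 in HI M2 and Gpr34 at 5.29 in LO M1.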

How the results depend on the processing

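Over all tested genes the count called was 934, with 642 to 975 under the alternatives, which include 646 without both HI M1 and LO M2. Of the ligands, Lta and Tnfsf11 kept their call and direction in all 16 alternatives (limma adjusted p up to 0.00972 and 0.0496), and Tnfsf8 in 15. The ligand count of 3 was 2 with the replicate block, where Tnfsf8 had adjusted p = 0.0505 (limma), and 3 to 4 when a library was left out. The labels do not state that libraries of the same label are paired. Their deviations from the group means correlated at 0.0149 to 0.113 over genes, against -0.0995 to 0.0583 for libraries of different labels. Pairing was therefore not settled, and the block gave 771 calls over all genes. HI F1, M1 and M2 each correlated best with the LO library of the same label and HI F2 did not. The block also ended the calls of Tnfrsf8, Tnfrsf9 and Gpr34 (limma adjusted p = 0.0642, 0.0763 and 0.111) and gave a call for Tnfaip3 (log2 difference 1.28, limma adjusted p = 0.0496). The pathway count of 5 was 3 without a filter and without both HI M1 and LO M2, and 1 to 5 when single libraries were left out. The sign of some log2 differences not called over all 8 libraries turned. Ltb went to 0.0975 and Tnfrsf12a to -0.0473 under quantile normalization. Leaving out 1 library in turn gave -0.455 to 0.369 for Tnfsf13b, -0.175 to 0.366 for Cd40lg, -0.710 to 0.0620 for Tnfrsf1a, -0.209 to 0.474 for Tnfrsf12a, -0.892 to 0.709 for Tnfrsf14, -0.676 to 0.656 for Cd40 and -1.02 to 0.0247 for Fasl. Without both HI M1 and LO M2, Tnfrsf1a stood at 0.0740 and Tnfrsf14 at -0.751. The cause was not tested. Of 650 gene values under alternatives, 578 kept direction and side of the threshold, 47 lost and 3 gained a call, and 22 changed sign. Read totals are unknown, so no counting interval was given, and a value of 0 in a shallow library says only that the gene is listed at 0.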

Other observations

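Tnf varied with the library number. It was higher in the library numbered 1 than in that numbered 2 for each sex in HI (9.48 against 7.27 and 5.95 against 4.63 FPKM) and in LO (14.4 against 12.7 and 15.1 against 7.98), as in 9.18% of all tested genes and in no other ligand measured. Zfp36, which encodes tristetraprolin, had the same order at 93.0 against 24.7 and 64.8 against 12.8 FPKM in HI. In LO it was at 288 against 26.6 and 99.7 against 17.1 FPKM. Tnfaip3 had this order too, at 29.4 against 11.0 and 14.9 against 13.3 FPKM in HI. Its LO values were 145 against 22.9 and 29.8 against 25.9 FPKM. Rhbdf2, Zc3h12a and Litaf of the same lists also had it, so the order was not particular to Zfp36. What the number stands for is not given in the sources used here, and its part in the Tnf values was not tested.

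The gene model Tnfsfm13, a readthrough that joins Tnfsf12 and Tnfsf13, was at 4.22 FPKM in HI F1, 4.01 in HI M2, 1.72 in LO F1 and 1.41 in LO M1, and at 0 in the other libraries. Reads of Tnfsf12 and Tnfsf13 could be shared with it.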
